A study of Mus musculus with 4 samples.

Results

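The meiotic chromosome axis and recombination genes were followed here as a set of 36 members, chosen by symbol from the 55450 genes of the deposited count tables, in which each symbol was present once. The set holds 7 genes of the synaptonemal complex, 2 of the HORMA-domain axis, 4 of meiotic cohesin, 6 of break formation, 7 of strand exchange, 7 of crossover formation and 3 of the meiotic programme. Cells of mouse testis had been profiled with a 10x 3′ droplet assay, which counts transcripts by unique molecular identifiers (UMIs). There were 2 libraries labelled HFD (a high-fat diet) and 2 labelled ND (taken here as the diet of the controls). The labels used here give no strain, age, length of feeding or number of animals. They do not say whether the libraries of a diet came from separate mice, so p-values measure only the spread between these libraries, which may be technical.

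In meiosis the chromosomes are organised along a protein axis of cohesins and HORMA-domain proteins. SPO11 and its partners cut the DNA, DMC1 filaments search the homologous chromosome, and the synaptonemal complex joins the homologues while some of the breaks are made into crossovers. In the mouse testis these genes are known as a programme that is switched on around meiotic entry and in the first stages of prophase.

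The libraries held 13561 to 15290 barcodes and 143748262 to 154221188 UMIs, and 54916 cells were kept. Library pairs shared 42 to 65 cell barcodes, and 0 of these had equal UMI totals. Clusters were made without the members and named from markers that include none of them: 210 spermatogonia-like, 3613 early-spermatocyte-like, 3740 pachytene-like, 4649 late-spermatocyte-like, 12255 round-spermatid-like and 7728 elongating-spermatid-like cells. A further 18672 cells stayed unnamed. Spermatogonia-like cells numbered 45 to 65 per library and were described but not tested.

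Several classes were made of more than 1 cluster. The early class had 5, called A to E here in the order of falling Stra8, a gene of meiotic entry. Levels are given as CPM, a gene's UMIs relative to all UMIs of the cells summed. Stra8 went from 179.7 CPM in A to 0.0431 in E. It was higher, at 330.3 CPM, in spermatogonia-like cells, where it is among the 10 leading genes. Stra8 is also among the markers that named that class, so its rank there was partly set by the naming. That class may hold cells at meiotic entry. Clusters A to D were small, with 93, 336, 228 and 321 cells, and E held 2635. A to D were also shallower, with medians of 3018, 2063.5, 1943.5 and 6377 UMIs against 16624 in E. Early E had Piwil1, a pachytene marker, at 1408 CPM, against 799.3 in pachytene-like cells. Of the early markers it had Tex101 at 1161 CPM but Prss50 at 0.840 and Tex15 at 5.23. The stage of E is thus not settled by the class name, and sums of the early class come mostly from E. Early A was thin, with 46 cells of ND 1 and 22 of ND 2 but 10 of HFD 1 and 15 of HFD 2. The late class had a deeper cluster with Cdk1 and Aurkb among its leading genes (2279 cells, median 32130 UMIs) and a shallower one with Ccnb1 and Ccna1 (2370 cells, median 9320.5 UMIs). The round and elongating clusters are lettered by rising Prm1, a protamine gene, which is no order in time.

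Taken by class, 19 of the 36 members were highest in early-spermatocyte-like cells and 10 in spermatogonia-like cells. For 6 of the latter no library overlapped the second class (Prdm9, Mei1, Mei4, Rec114, Brca2 and Tex11), and Prdm9 was at 11.6 ± 3.95 CPM there against 2.98 ± 0.588 in the early class (SD, n = 4 libraries). Taken by cluster, most members were at their highest in the small early clusters, although early A held 93 cells in all. Of the 34 members that reached 20 CPM in some germ-cell cluster, 15 were highest in early A and 10 in early D. Between the highest and the second cluster the libraries overlapped for 7 of the 15 (Sycp2, Stag3, Rad21l, Gm960, Hsf2bp, Meioc and Zfp541) and 3 of the 10 (Syce3, Tex12 and Msh4), so the place of these maxima is not settled. The 4 small early clusters held the maximum of 73.5% of these members, of 63.5% of 52 other meiotic genes and of 29.5% of the 11391 genes at that level. Some of the other meiotic genes, among them Tex15, Zcwpw1, Terb1 and Rad51ap2, are markers that named the early class. They were not kept out of the clustering, so their place was partly fixed in advance and the 63.5% is no independent comparison. The members were kept out, but these related genes named the early class, so the 73.5% is not fully independent of the naming either. Rad21l, Mei1 and Mnd1 passed 20 CPM only through the early cluster where they were highest. These shares describe 1 clustering and have no test.

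**Figure D1:**
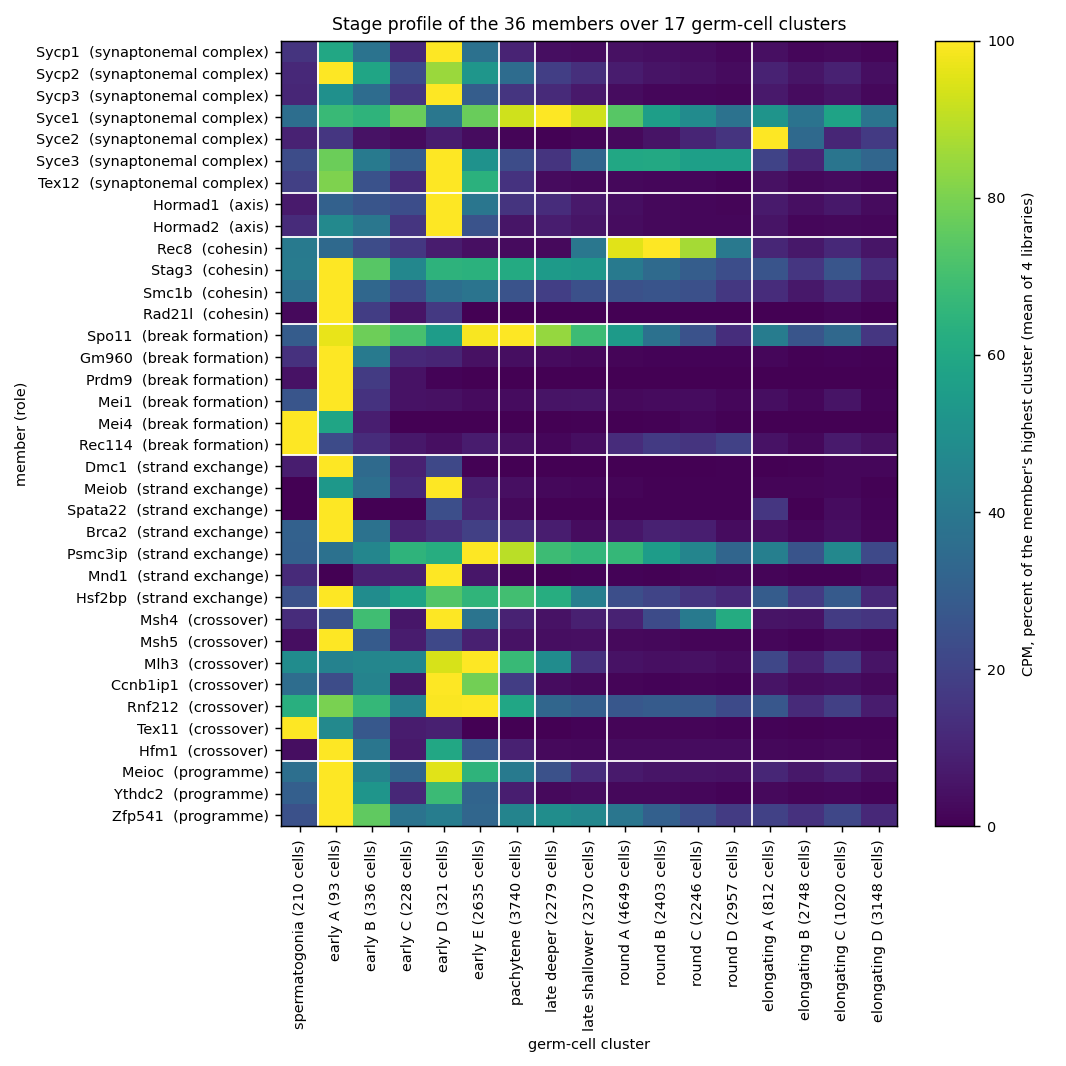
Rows are the 36 members by role and columns are the 17 germ-cell clusters; colour is the member's CPM (mean of 4 libraries) as a percent of its own highest cluster. Most rows are brightest in early A or early D, while Syce1, Syce2, Rec8, Spo11, Mei4, Rec114, Tex11, Psmc3ip, Mlh3 and Rnf212 are brightest elsewhere.

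Of the 6 break formation genes, 3 were highest in early A. Prdm9, the histone methyltransferase that marks sites of breaks, stood in early A at 282, 263, 208 and 226 CPM in HFD 1, HFD 2, ND 1 and ND 2. It was at 42.4 ± 7.32 CPM (SD, n = 4 libraries, as in all stage levels below) in early B and at 0.254 to 0.925 CPM in the libraries of early E. Mei1 and Gm960 (TOPOVIBL), which act with SPO11, were also highest in A, at 61.7 ± 22.7 and 58.8 ± 33.02 CPM. Over all 4 libraries early A held only 73 UMIs of Prdm9, 22 of Mei1 and 17 of Gm960. Mei4 and Rec114, partners in break formation, had their highest mean in spermatogonia-like cells, with libraries that overlapped those of early A. Mei4, which had 51 UMIs in all, was at 15.8 ± 6.93 CPM there and 9.26 ± 10.7 in early A. Rec114 was at 53.8 ± 16.9 CPM and 12.2 ± 20.3, and at 8.37 ± 0.404 in round-spermatid-like cells. Spo11, the gene of the cutting enzyme, had another profile. It was at 136 ± 1.37 CPM in pachytene-like cells and 135 ± 5.10 in early E, levels that overlapped between libraries, and at 115 ± 3.94 in the deeper late cluster.

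The strand-exchange genes fell into early, brief and lasting profiles. Dmc1, the meiotic recombinase, reached 225, 298, 364 and 282 CPM in early A (HFD 1, HFD 2, ND 1, ND 2), 63.4 ± 9.64 in D and 1.17 ± 0.315 in E. Brca2, which loads recombinases, was likewise highest in A, at 527 ± 99.2 CPM, and kept 99.5 ± 7.44 in E. Meiob, which binds single-stranded DNA, was higher in D than in A in every library, at 239, 236, 254 and 177 CPM against 113, 140.3, 129.9 and 98.9. Mnd1 and Psmc3ip (HOP2) encode the subunits of 1 complex that assists DMC1, and their profiles differed. Mnd1 had 0 UMIs of 317257 in early A, a count that allows up to 9.46 CPM (3 UMIs, counting error only), stood at 90.2 ± 12.7 CPM in D and at 5.45 ± 0.538 in E. Psmc3ip was highest in E, at 669.8 ± 12.9 CPM, with 600.4 ± 7.09 in pachytene-like cells and 446 ± 3.62 in round A. Hsf2bp, a BRCA2 partner, was at 214 ± 41.3 CPM in A and 149.7 ± 3.88 in pachytene-like cells. Spata22, the partner of MEIOB, had 93 UMIs in all and 8.67 ± 13.4 CPM in A, from 2 UMIs.

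The axis and synaptonemal complex genes were mostly highest in early D. Sycp3, of the lateral element, was at 2718, 2616, 2570.0 and 2415 CPM in D and at 1211, 1333, 1273 and 1370.0 in A. Sycp1, the transverse filament, was at 2197, 2238, 2302 and 2394 CPM in D and 805 to 885 in E. Hormad1, which marks unsynapsed axes, was at 818, 786, 793 and 805 CPM in D. It was at 314 ± 4.81 CPM in E, and its paralogue Hormad2 was at 108 ± 12.6 in D and 27.7 ± 0.604 in E. The central element genes Tex12 and Syce3 stood at 334 ± 49.6 and 503 ± 46.6 CPM in D. Sycp2, the partner of SYCP3, was high in both A (954 ± 111 CPM) and D (809 ± 38.02). Among the cohesin subunits, Smc1b (1462 ± 346 CPM) and Stag3 (329 ± 67.9) were highest in A, as was Rad21l (27.3 ± 31.5), which rested on 7 UMIs there and 33 in all.

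Crossover genes were spread over A, D and E. Msh5, of the MutSγ clamp, and the helicase gene Hfm1 were highest in A, at 211 ± 42.2 and 232 ± 45.5 CPM. Msh4, the partner of MSH5, and Ccnb1ip1 (HEI10) were highest in D, at 43.9 ± 16.8 and 62.2 ± 8.33 CPM, and Ccnb1ip1 kept 49.01 ± 3.18 in E. Rnf212, a ligase gene of crossover designation, stood at 29.1 ± 3.93 CPM in D and 29.3 ± 1.07 in E, within the spread of the libraries. Mlh3, of the nuclease that resolves crossovers, was at 80.8 ± 13.9 CPM in D, 85.98 ± 3.72 in E and 57.8 ± 3.57 in pachytene-like cells. Of the programme genes, Meioc and Ythdc2, whose products form a complex on RNA, were highest in A, at 342 ± 70.9 and 201 ± 37.7 CPM. Zfp541, a zinc-finger gene of pachytene cells, was at 229.8 ± 76.7 CPM in A and 112 ± 1.69 in the deeper late cluster.

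A few members departed from the early pattern. Tex11, a crossover gene, is the 1 member on the X chromosome (X:100838648-101059667, GRCm38), and the other 35 lie on 14 autosomes. Tex11 was at 168, 133, 124 and 100.3 CPM in spermatogonia-like cells, 61.7 ± 55.7 in early A, 11.4 ± 7.19 in D and 0 to 0.445 in the libraries of E. Rec8, the kleisin subunit of meiotic cohesin, was at 35.3 ± 9.96 CPM in spermatogonia-like cells and 2.67 ± 0.403 in pachytene-like cells. It was then at 34.3 ± 3.65 CPM in the shallower late cluster and 83.99, 80.7, 86.9 and 77.1 in round A. Syce2, of the central element, was at 478 ± 253 CPM in early A and 21.5 ± 2.23 in the deeper late cluster. It was at 3466, 2892, 2786 and 2854 CPM in elongating A, all 4 libraries far above every early cluster. Elongating A was shallow (median 1976 UMIs), with Prm1 at 3580 CPM, near the 3694 of early A and far below the 75921 of elongating D. Its stage is therefore less certain. In elongating B, with Prm1 at 41361 CPM, Syce2 was at 1029 ± 56.4. Syce3 stood at 284 to 305 CPM in the 4 round clusters, and Msh4 at 26.96 ± 1.70 in round D. Syce1, of the central element, was highest in the deeper late cluster, at 856 ± 26.5 CPM. Its 311 ± 24.1 CPM in spermatogonia-like cells was below its 439 CPM in macrophage-like cells, as were its levels in early D, round C, round D, elongating B and elongating D.

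Overlapping genes and free RNA bear on how these levels are read, and their part in them was not tested. Of the 36 members, 21 overlap another annotated gene, 8 of them on the same strand, and the strand setting of the counting is not given in the sources used here. Spata22 (11:73329741-73346044) lies over its whole length, 16304 bases, within the protein-coding Gm49340 on the same strand, which is listed at 0 UMIs. Reads shared by these genes cannot be assigned to either, so the low count of Spata22 is uncertain. The other same-strand neighbours reached at most 12.5 CPM (Gm42531, which overlaps Brca2). Sycp3 (10:88459569-88473236) lies within the span of Chpt1 on the opposite strand, which reached 764 CPM in its highest germ-cell cluster. Gcdh, which overlaps Syce2 by 1829 bases on the opposite strand, reached 9.48 CPM. Il18, whose span holds Tex12 on the opposite strand, reached 4.38 CPM, and Nptn, which overlaps Rec114 by 5106 bases on the opposite strand, 88.9. Macrophage-like cells, which had a median of 2259 to 3258 UMIs by library, were taken as a measure of free RNA. That they lack these genes was assumed and not tested. Ythdc2 stood at 14.8 CPM in macrophage-like and 22.7 in lymphocyte-like cells, against 13.1 in all cells. Members stood in macrophage-like cells at a median of 0.692 times their level in all cells, and Prm1, a spermatid gene, at 0.518 times. The median was 0.87 times in lymphocyte-like cells (Prm1 0.911), 0.817 in fibroblast-like (0.506), 0.706 in Sertoli-like (3.11) and 0.348 in Leydig-like cells (0.259), so macrophage-like cells are not the strictest measure. Sycp3 was at 201 CPM in macrophage-like cells, Sycp2 at 178, Syce1 at 439 and Zfp541 at 99.2. Levels at or below these are not read as expression, which covers, among others, Sycp2, Sycp3 and Zfp541 in all round and elongating clusters and Zfp541 in early C to E. Prm1 was at 3694, 4682, 3467 and 2575 CPM in early A, B, C and D. It was at 1041 CPM in early E, 760 in pachytene-like cells and 662 in the deeper late cluster. A limit from shallow cells may thus be too strict for deeper clusters, and a level below it does not show that a gene is off. Brca2 was at 49.2 CPM in lymphocyte-like cells and Syce1 at 521 in fibroblast-like cells, above Brca2 in both late clusters and Syce1 in round B to D and all elongating clusters. The late maxima of Rec8 (7.81 CPM in macrophage-like and 28.7 in fibroblast-like cells) and Syce2 (63.3 in macrophage-like and 406 in Sertoli-like cells) lie above these levels.

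The DNA before the start sites was searched for 7 motifs known from the sites of transcription factors. RefSeq start sites (GRCm38.p6) were matched for 32 members, and the 250 bases before each were read on both strands. GCGGGAA, the core of E2F6 sites, was in 11 of 32 members (34.4%) and in 4.38% of 27025 genes. CACGTG, the E-box, was in 7 members (21.9%) and in 6.86% of genes, and 4 members held both (Sycp3, Syce2, Tex12 and Hormad1). Among 36 other meiotic genes with a start site, 11.1% held GCGGGAA and 13.9% CACGTG. Of 5 further motifs, that of NRF1 was in 3 members (9.38%), 2.78% of the other meiotic genes and 0.877% of genes. The search found CNCCTCAG (STRA8-MEIOSIN) in 5 members (15.6%), 11.1% of the other meiotic genes and 7.39% of genes. It found AACNGTC (MYB) in 1 member (3.12%), 19.4% of the other meiotic genes and 7.62% of genes. It also found TGACGTCA (CRE) in 1 member (3.12%), 2.78% of the other meiotic genes and 1.77% of genes, and CCAAT in 14 members (43.8%), 61.1% of the other meiotic genes and 37.5% of genes. GCGGGAA and CACGTG were singled out for display after these shares were seen. E2F6 and E-box binding MAX and MGA are known as parts of a Polycomb complex that silences meiotic genes outside the germ line. A match is a description of letters, and binding was not measured here. Of 15 members with a start site and their maximum in early A at any level (Spata22 included, Ythdc2 without a start site), 6 held GCGGGAA, 1 CACGTG and 8 neither. Of 9 with their maximum in early D (Meiob without a start site) the counts were 3, 4 and 5, and Syce2, which holds both, was highest in elongating A. Shown are 3 of the 4 members that hold both motifs, and Dmc1, which holds neither. Each runs 5′ to 3′ along the gene's strand and ends at the base before the start, with GCGGGAA or CACGTG on either strand in capitals.
Hormad1 (chr3:95559427-95559676, plus strand): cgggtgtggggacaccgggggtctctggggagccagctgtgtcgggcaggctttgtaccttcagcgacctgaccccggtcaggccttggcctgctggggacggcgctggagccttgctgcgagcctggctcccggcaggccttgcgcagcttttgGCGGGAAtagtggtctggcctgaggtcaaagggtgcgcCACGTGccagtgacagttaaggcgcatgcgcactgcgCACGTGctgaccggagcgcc
Sycp3 (chr10:88459337-88459586, plus strand): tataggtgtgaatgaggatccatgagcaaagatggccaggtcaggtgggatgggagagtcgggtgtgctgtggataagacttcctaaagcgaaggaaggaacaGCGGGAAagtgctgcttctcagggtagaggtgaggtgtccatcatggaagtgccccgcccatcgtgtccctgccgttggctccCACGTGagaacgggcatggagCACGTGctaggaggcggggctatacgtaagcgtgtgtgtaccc
Tex12 (chr9:50561269-50561518, minus strand): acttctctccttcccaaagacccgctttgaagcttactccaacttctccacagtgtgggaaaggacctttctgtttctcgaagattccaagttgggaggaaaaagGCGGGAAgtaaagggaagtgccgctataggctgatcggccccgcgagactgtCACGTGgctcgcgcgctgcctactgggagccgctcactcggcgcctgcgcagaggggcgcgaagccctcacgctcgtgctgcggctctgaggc
Dmc1 (chr15:79605110-79605359, minus strand): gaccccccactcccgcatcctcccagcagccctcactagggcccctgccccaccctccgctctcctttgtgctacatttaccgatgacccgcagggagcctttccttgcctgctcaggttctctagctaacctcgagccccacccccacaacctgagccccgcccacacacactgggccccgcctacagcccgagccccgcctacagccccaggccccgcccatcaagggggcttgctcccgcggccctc
The E2F6 letters begin 95, 147 and 145 bases before the start in Hormad1, Sycp3 and Tex12. The E-box nearest to the start begins 20, 43 and 93 bases before it.

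The HFD libraries were compared with the ND libraries stage by stage. UMIs were summed per stage and library and tested with edgeR's quasi-likelihood test over all genes, and a gene was called at an adjusted p under 0.05. Counts at an unadjusted p are given below without the share of all genes at that p, and no excess of members is read from them. The change of a gene is the log2 ratio, HFD over ND, with its standard error (SE), and CPM values beside them are scaled by TMM factors. Too few UMIs for the test were left for 2 members in the early class (Rad21l and Mei4), 5 in the pachytene-like, 5 in the late, 3 in the round and 5 in the elongating class, and for Rad21l in the sum of all cells. Called members were few in the stages and many in the sum of all cells, and the same held for all genes. Of these 0.714% to 10.3% were called in the stages and 34.3% in the sum of all cells. Within the stages the largest called change was 0.32 on the log2 scale.

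**Figure D2:**
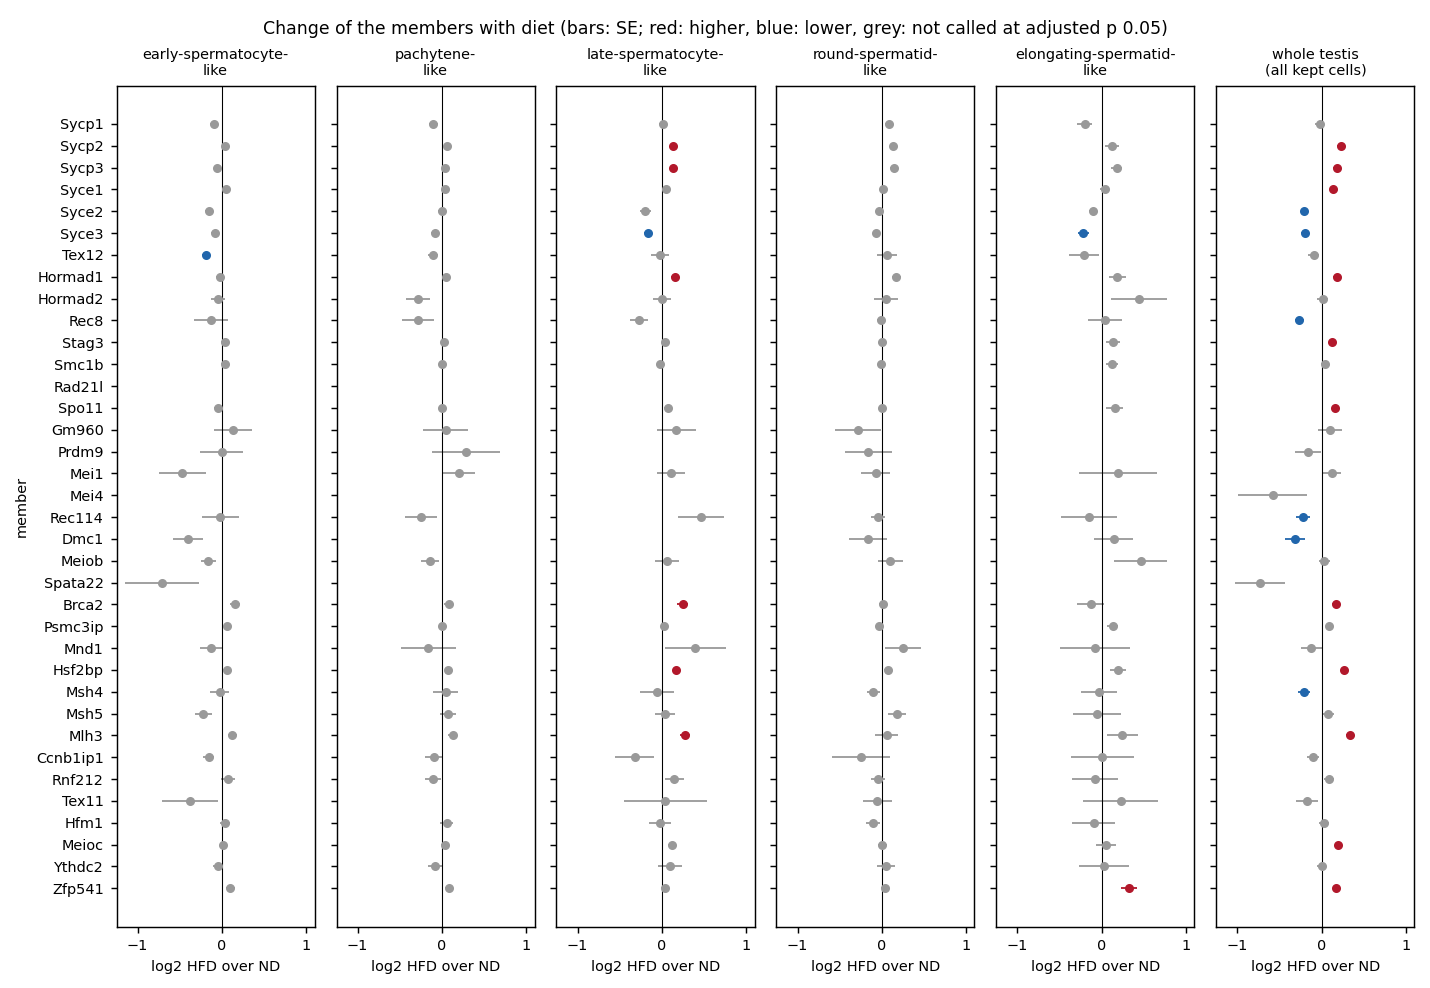
Each panel is a stage or the whole testis, and each point a member's log2 ratio of HFD over ND with its SE, coloured where called. Called members number 1 in the early, 0 in the pachytene-like, 7 in the late, 0 in the round and 2 in the elongating class, and 17 in the whole testis. Of all genes 1.47%, 0.847%, 10.3%, 0.714%, 4.78% and 34.3% were called in the same fits.

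In early-spermatocyte-like cells 1 of 34 tested members was called, Tex12, which fell in HFD, where 1.47% of all genes were called. Of the genes, 0.711% and 0.764% were called higher and lower. Tex12 stood at 202 and 202 CPM in HFD 1 and HFD 2 and at 218 and 241 in ND 1 and ND 2. Both HFD libraries were below both ND libraries, with a log2 change of -0.19 ± 0.048 (SE, edgeR adjusted p = 0.0446). In the 4 small early clusters Tex12 was at 203 and 203 CPM against 263 and 316, a log2 change of -0.51 ± 0.12 (edgeR adjusted p = 0.0518). Pooled over the 4 libraries and without TMM factors, Tex12 was at 281 and 339 CPM in A and D but 82.5 and 38.3 in B and C. Early A held 10 and 15 cells in HFD against 46 and 22 in ND, and D 57 and 79 against 94 and 91. Early B held 80 and 79 against 90 and 87, and C 53 and 77 against 48 and 50. The sum of the 4 does not hold this makeup equal. With each cluster drawn down to equal cell numbers in all libraries, Tex12 was still called in the early class. Of 15 alternatives for Tex12 in this class, 7 kept the call and 8 lost it. In early E Tex12 was at 202 and 201 CPM against 215 and 235 (-0.16 ± 0.048, edgeR adjusted p = 0.149). Both parts are made of cells of the called class. The direction was the same in both and the call was lost in each, where edgeR called 20 of 9738 and 62 of 14320 of all genes. It was also lost without HFD 1 (edgeR adjusted p = 0.184), without HFD 2 (0.166), without ND 2 (0.453, log2 change -0.11) and with DESeq2 (adjusted p = 0.571).

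**Figure D3:**
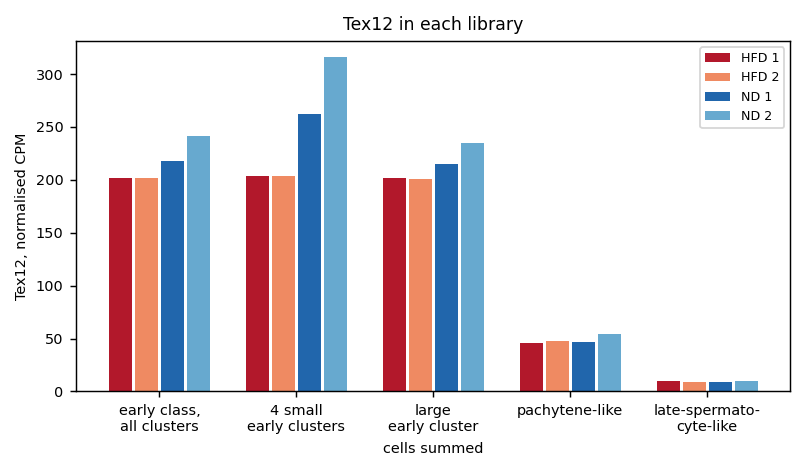
Bars are the normalised CPM of Tex12 in each library (colours) for the early class, its 4 small clusters, its large cluster, and the pachytene-like and late classes. HFD 1 and HFD 2 lie below ND 1 and ND 2 in the first 3 sets and overlap them in the last 2.

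Other members of the early class were not called. Syce1, the synaptonemal complex gene with the most UMIs, was at 651 and 661 CPM in HFD and 652 and 611 in ND. Hormad1 was at 328 and 339 CPM against 338 and 339.9, and Smc1b at 565 and 571 against 560.2 and 549. Spo11 was at 125 and 133 CPM against 135 and 131, with diets that overlapped. Psmc3ip was at 659.6 and 661 CPM against 637 and 630.0 (log2 change 0.06 ± 0.040), Mlh3 at 85.8 and 89.9 against 82.7 and 78.7, and Zfp541 at 80.7 and 84.2 against 76.9 and 76.98. Dmc1 was at 6.19 and 7.96 CPM against 11.6 and 7.25, a change of -0.40 ± 0.18 that was not called (edgeR adjusted p = 0.289), and the cells of early A, where Dmc1 is highest, numbered 10 and 15 in HFD against 46 and 22 in ND. The libraries of the diets did not overlap for 7 members with HFD above ND and 12 with HFD below, beside 22.2% and 22.3% of all genes. The median change was -0.03 over the members and -0.0039 over all genes.

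In pachytene-like cells no member of the 31 tested was called by edgeR or by DESeq2 (0 and 0), and 1 and 0 had an unadjusted p under 0.05. Of all genes 0.847% were called by edgeR, 0.554% and 0.293% higher and lower in HFD. Syce1 stood at 805 and 807 CPM in HFD and 803 and 771 in ND, and Smc1b at 374 and 374 against 366 and 378. Spo11 was at 138 and 134 CPM against 136 and 136, and Psmc3ip at 598 and 606 against 601 and 599.7. The diets overlapped for the last 3 of these. Hormad1 was at 121 and 124 CPM against 115 and 121 and Zfp541 at 105 and 109 against 99.6 and 102. Mlh3, the member below an unadjusted p of 0.05, was at 58.2 and 62.6 CPM against 53.8 and 56.8 (log2 change 0.13 ± 0.053, edgeR adjusted p = 0.297). Without ND 1, 2 members were called, where 7.47% of all genes were. Over the tested members, 9 members had both HFD libraries above both ND libraries and 4 had both below, where 22.3% and 22.9% of all genes did. The median change was 0.02 over the members and -0.0044 over all genes.

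Whether the diet change differed between the early and pachytene-like classes was tested as an interaction in 1 fit of both. Most cells of the early class were of early E, so the classes compared may overlap in stage. edgeR called 0 of 34 members, where 0.0608% of all genes were called. Of the members, 6 had an unadjusted p under 0.05 (Sycp3, Syce2, Tex12, Hormad1, Mei1 and Msh5). Sycp3 had a difference of -0.12 ± 0.031 (early minus pachytene-like, edgeR adjusted p = 0.137), and Tex12 of -0.11 ± 0.056 (edgeR adjusted p = 0.767).

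In late-spermatocyte-like cells 7 of 31 tested members were called, 6 higher and 1 lower in HFD, where 10.3% of all genes were called, 3.91% and 6.39% higher and lower. Mlh3 rose from 30.5 and 31.3 CPM in ND to 36.04 and 38.8 in HFD (log2 change 0.27 ± 0.061, edgeR adjusted p = 0.00738). Brca2 rose from 32.8 and 31.4 CPM to 36.5 and 39.7 (0.25 ± 0.062, edgeR adjusted p = 0.0153), and Hsf2bp from 114 and 118 to 130.1 and 132 (0.17 ± 0.040, edgeR adjusted p = 0.0109). In each, both HFD libraries lay above both ND libraries. Hormad1 rose from 80.7 and 87.5 CPM to 94.6 and 93.5 (0.16 ± 0.046, edgeR adjusted p = 0.0333). Sycp2 rose from 157 and 159 CPM to 174 and 173 (0.13 ± 0.037, edgeR adjusted p = 0.0301), a level below the 178 CPM of macrophage-like cells, and Sycp3 from 254 and 273 to 288 and 290.1 (0.13 ± 0.038, edgeR adjusted p = 0.0343). Syce3 fell from 109 and 99.5 CPM to 95.2 and 89.9 (-0.17 ± 0.048, edgeR adjusted p = 0.0336), also with no overlap of the diets. Of these 7, Brca2 lay below its 49.2 CPM and Syce3 below its 129 CPM in lymphocyte-like cells in all 4 libraries. Mlh3 lay below its 36.3 CPM in fibroblast-like cells in all libraries but HFD 2, and Hormad1 below its 82.8 there in ND 1. Of the members not called, Syce1 was at 845 and 864 CPM in HFD and 852 and 804 in ND, Smc1b at 294 and 291 against 296 and 296, Psmc3ip at 457 and 461 against 455 and 445, Spo11 at 115 and 109 against 107 and 107 and Zfp541 at 111 and 113 against 111 and 108. Across the class, 13 members had both HFD libraries above both ND libraries and 4 had both below, where 26% and 27.1% of all genes did. The median change was 0.04 over the members and -0.0014 over all genes.

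The makeup of the late class moved with diet as well. The deeper cluster held 53.8% (exact Clopper-Pearson 95% interval 50.8 to 56.7) and 55.3% (52.6 to 58.0) of late cells in HFD 1 and HFD 2, against 41.6% (38.7 to 44.5) and 44.1% (41.2 to 47.2) in ND 1 and ND 2, intervals that cover counting error only. With each cluster drawn down to equal cell numbers in all libraries, edgeR called 0 of 30 members, with 4 at an unadjusted p under 0.05, and 35 genes in all in place of 1648. The log2 change was then 0.12 ± 0.064 for Mlh3, 0.13 ± 0.065 for Brca2, 0.13 ± 0.041 for Hsf2bp and -0.05 ± 0.047 for Syce3. In the deeper cluster alone edgeR called 0 of 30 members and in the shallower one alone 0 of 27, with 3 unadjusted in each. Over all genes edgeR called 23 of 14171 in the deeper cluster and 34 of 12643 in the shallower one. Brca2 had a change of 0.08 ± 0.069 in the deeper cluster and 0.49 ± 0.16 in the shallower one, and Mlh3 of 0.12 ± 0.059 and 0.18 ± 0.19. In the shallower cluster Brca2 was at 18.9 and 22.1 CPM in HFD and 12.7 and 16.5 in ND and Mlh3 at 10.7 and 14.6 against 10.5 and 11.6, all below their 29.7 and 24.2 CPM in macrophage-like cells. The 7 members had the direction of the whole class in both clusters, which are parts of that class, but several changes were within their SE of 0. Syce3 was at -0.04 ± 0.050 in the deeper and -0.04 ± 0.057 in the shallower cluster. Hormad1 was at 0.04 ± 0.046 and 0.25 ± 0.090, Hsf2bp at 0.13 ± 0.040 and 0.02 ± 0.070, and Sycp3 at 0.05 ± 0.038 and 0.02 ± 0.054. In the shallower cluster Sycp2, Sycp3 and Hormad1 also lay below their macrophage-like levels in every library. DESeq2 called 0 of the members and 5.32% of all genes. Without HFD 2, 0 members and 2.92% of genes were called, and without HFD 1, 3 members and 6.61%.

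**Figure D4:**
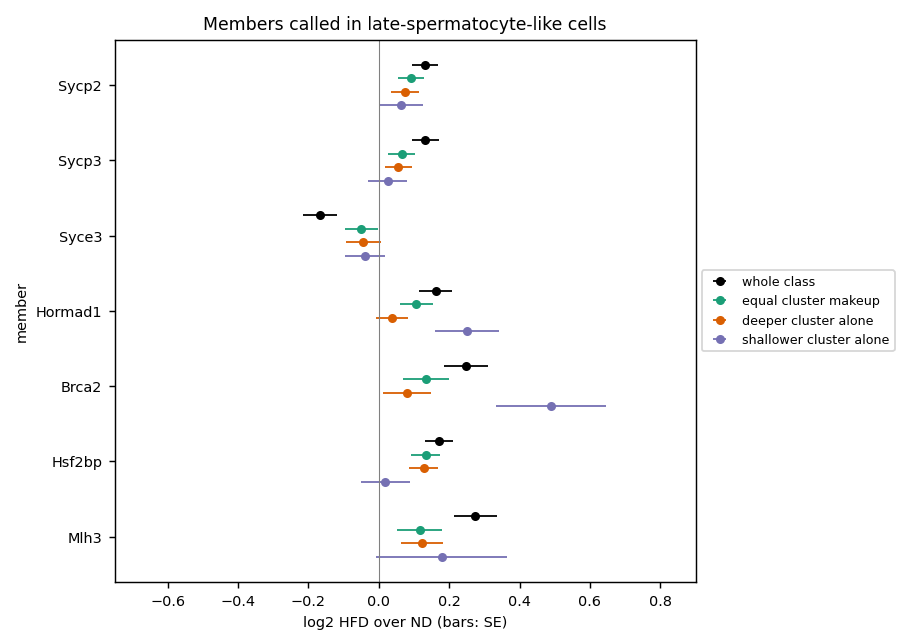
Points are log2 ratios of HFD over ND with SE for the 7 members called in the late class, in the whole class, with equal cluster makeup, and in the deeper and the shallower cluster alone. All points of a member have 1 sign, some within their SE of 0, and with equal makeup each is nearer to 0 than in the whole class.

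In round-spermatid-like cells 0 of 33 tested members were called by edgeR (4 had an unadjusted p under 0.05) and 0 by DESeq2 (2 had one). Of all genes 0.714% were called by edgeR, 0.42% and 0.294% higher and lower in HFD. Rec8 stood at 70.3 and 67.04 CPM in HFD and 71.6 and 67.2 in ND, and Syce2 at 231 and 232 against 233 and 241. Smc1b was at 331 and 330.1 CPM against 332 and 334, Syce1 at 478 and 492 against 492 and 466, and Psmc3ip at 341 and 342 against 350.3 and 348. The log2 changes of these 5 lay between -0.04 and 0.02. The 4 members with a low unadjusted p were Sycp2, Sycp3, Hormad1 and Syce3, with log2 changes of 0.14, 0.14, 0.17 and -0.07, and the first 3 of these are below their macrophage-like levels in this class. Without ND 2, 3 members were called, where 4.87% of all genes were. The libraries of the diets did not overlap for 6 members with HFD above ND and 7 with HFD below, beside 24.3% and 23.2% of all genes.

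In elongating-spermatid-like cells 2 of 31 tested members were called, where 4.78% of all genes were, 1.99% and 2.79% higher and lower. Zfp541 rose from 28.2 and 26.4 CPM in ND to 32.3 and 35.9 in HFD (log2 change 0.32 ± 0.098, edgeR adjusted p = 0.0408), below its 99.2 CPM in macrophage-like cells. Syce3 fell from 142 and 145 CPM to 131 and 115 (-0.22 ± 0.065, edgeR adjusted p = 0.0328), above its 87.5 CPM there, though lymphocyte-like cells had 129 and Sertoli-like cells 137. The diets did not overlap in either gene. In this class 13 members had both HFD libraries above both ND libraries and 5 had both below, where 24.4% and 24.3% of all genes did. Neither was called without HFD 2, without ND 1 or without ND 2, where 0.568%, 3.38% and 0.648% of all genes were, and the change of Syce3 without HFD 2 was -0.13 ± 0.080. With the replicate number as a block Zfp541 was not called (edgeR adjusted p = 0.0583), and DESeq2 called 0 members and 12% of genes. With equal cluster makeup Syce3 was still called. Of 13 alternatives for Syce3, 8 kept the call and 5 lost it, and of 12 for Zfp541, 5 kept it and 7 lost it. Syce2, which is highest in this class, was at 766 and 742 CPM against 834 and 787 and was not called (log2 change -0.10 ± 0.052, edgeR adjusted p = 0.255).

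Summed over all kept cells, 17 of 35 tested members were called, 11 higher and 6 lower in HFD, where 34.3% of all genes were called, 15.3% and 18.9% higher and lower. The libraries of the diets did not overlap for 15 members with HFD above ND and 10 with HFD below, beside 31.6% and 35.9% of all genes. In such sums fewer cells of a type and less RNA per cell cannot be told apart. Mlh3 rose from 27.2 and 27.9 CPM in ND to 32.9 and 36.7 in HFD (log2 change 0.34 ± 0.053), and Hsf2bp from 79.6 and 80.8 to 93.9 and 98.9 (0.27 ± 0.041). Sycp2 rose from 159 and 165 CPM to 182 and 197, Sycp3 from 227 and 239.5 to 258 and 271, and Syce1 from 583 and 565 to 623 and 636. In each of these both HFD libraries lay above both ND libraries. Hormad1 rose from 80.7 and 85.6 CPM to 92.2 and 96.6, Stag3 from 136 and 142 to 152 and 152, and Spo11 from 77.3 and 79.9 to 88.3 and 87.1. Brca2 rose from 43.8 and 41.4 CPM to 45.9 and 49.8, Meioc from 70.7 and 73.9 to 79.8 and 86.1, and Zfp541 from 75.96 and 76.3 to 83.7 and 87.8. The same held for these 6.

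The other 6 called members fell. Rec8 fell from 31.9 and 29.8 CPM in ND to 26.9 and 24.4 in HFD (-0.26 ± 0.054), and Syce2 from 201 and 197 to 175 and 170.3 (-0.21 ± 0.038). Syce3 fell from 209.8 and 206 CPM to 187 and 175 (-0.20 ± 0.041), and Msh4 from 9.11 and 10.3 to 8.61 and 8.12 (-0.21 ± 0.068). Dmc1 fell from 2.44 and 2.13 CPM to 1.72 and 1.95 (-0.32 ± 0.11), and Rec114 from 4.75 and 5.39 to 4.37 and 4.33 (-0.22 ± 0.082). Of 11 alternatives for each, the call was lost in 9 for Dmc1, 8 for Rec114 and 5 for Msh4, among them without HFD 2 for all 3, without HFD 1 and ND 1 for Dmc1, without HFD 1 and ND 2 for Rec114 and without ND 2 for Msh4. Of the members that rose, Stag3 lost the call in 5 (without HFD 1, HFD 2 or ND 1 among them) and Brca2 in 4 (without HFD 2 or ND 2 among them). The edgeR adjusted p of the 17 members lay between 0.000219 and 0.0491.

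The shares of the stages moved in the same libraries. Pachytene-like cells were 6.97% and 8.69% of kept cells in HFD 1 and HFD 2 and 5.63% and 6.05% in ND 1 and ND 2, and late-spermatocyte-like cells 8.62% and 9.74% against 7.73% and 7.85%. Round-spermatid-like cells were 19.7% and 19.7% against 24.7% and 24.9%. With every cluster drawn down to equal cell numbers in all libraries, 47368 cells in all, edgeR called 0 of the 35 members, with 6 at an unadjusted p under 0.05, and 284 genes in all in place of 8724. Mlh3 was then at 0.10 ± 0.040, Syce2 at -0.02 ± 0.032 and Rec8 at 0.04 ± 0.045. Rec8 and Spo11 (-0.0041 ± 0.036) were then on the other side of 0. With RLE size factors the calls in the sum of all kept cells were 12 higher and 4 lower, with DESeq2 12 and 3, and without HFD 2 they were 7. Of all genes these fits called 34.7%, 36.2% and 19.4%.

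**Figure D5:**
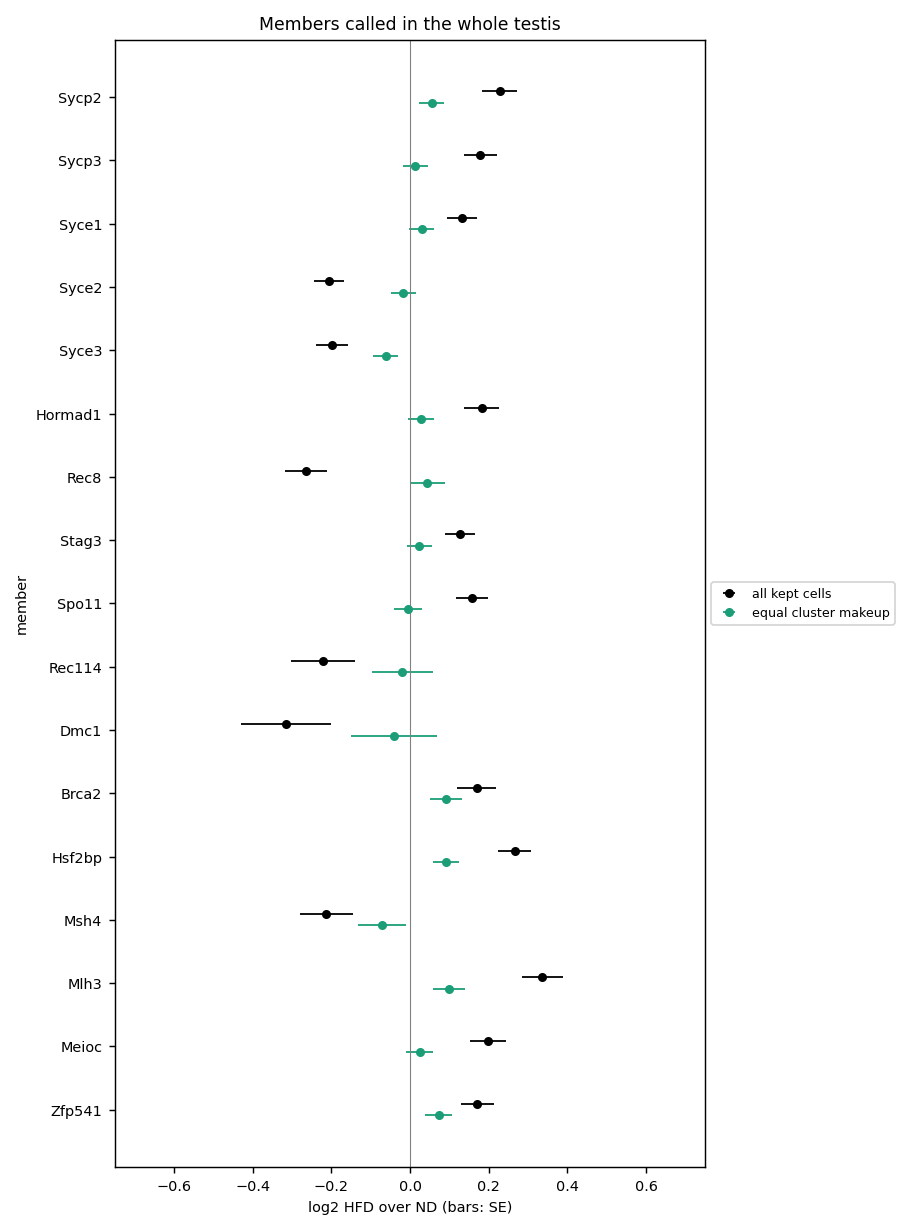
Points are log2 ratios of HFD over ND with SE for the 17 members called in the whole testis, over all kept cells and with equal cluster makeup. With equal makeup all 17 lie between -0.07 and 0.10.

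The other meiotic genes, 54 that are no members, were tested in the same fits. In the early class edgeR called 2 of 52. Terb1, which tethers telomeres, rose from 62.1 and 62.5 CPM to 74.7 and 75.8 (0.27 ± 0.058), and H2afx, a histone gene of the break response, fell from 239 and 253 to 215 and 219.9 (-0.18 ± 0.046). In pachytene-like cells edgeR called 0 of 49, with 9 at an unadjusted p under 0.05. In the late class 3 of 51 rose and 2 fell, among them Sgo2a, a guardian of centromeric cohesion, from 102 and 107 CPM to 127 and 125 (0.27 ± 0.041), and the cohesin gene Smc3 from 42.96 and 37.6 to 32.9 and 33.6 (-0.28 ± 0.064), below its 46.1 CPM in macrophage-like cells. Rbm46 (0.15 ± 0.046) and Swi5 (0.14 ± 0.034) were the others that rose at 20 CPM or more. Sgo2a was the 1 of 52 called in the round class, and 3 of 44 were called higher in the elongating class, Sgo2a, the kinase gene Atr and Rpa1. These 3 stood in that class at 23.2 and 26.6, 25.8 and 28.4 and 41.7 and 45.2 CPM in HFD and 17.6 and 19.6, 21.7 and 19.3 and 35.8 and 35.7 in ND. All were below their 50.8, 102 and 117 CPM in macrophage-like cells, and no expression is read from them. The same holds for Sgo2a in the round class. Rpa1 stood in macrophage-like cells above its 95.3 CPM in all cells. For such genes that level may hold expression of the macrophage-like cells and is no clean measure of free RNA. In the whole testis 17 of 53 rose and 8 fell, the first led by Sgo2a (0.44 ± 0.043), Rad50 (0.32 ± 0.045) and Terb1 (0.31 ± 0.044) and the second by Smc3 (-0.23 ± 0.040), Tex15 (-0.23 ± 0.046) and Rad21 (-0.22 ± 0.056) among genes at 20 CPM or more. With equal cluster makeup edgeR called 0 of 51 in the late class (0.228% of all genes) and 1 of 52 in the whole testis (1.15% of all genes), Sgo2a at 0.17 ± 0.036. It called 1 of 52 in the early class, Terb1, 0 of 52 in the round class and 5 of 44 in the elongating class, where 9.12% of all genes were called.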

How the data were processed

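Cells of mouse testis were measured in 4 libraries, 2 HFD and 2 ND. The authors deposited a UMI count matrix per library, made with 10x software 3.0.2 per the file headers and with the mm10 build per the submitters' processing notes. Other steps are not given in the sources used here. Libraries held 13561 to 15290 barcodes.

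Barcodes under 200 genes or over 20% mitochondrial UMIs were dropped, and doublets called by scrublet (expected rate 0.1) were removed. Cells were clustered with scanpy 1.11.5 on 2000 variable genes (30 components, 15 neighbours, Leiden resolution 1), with the members left out. Clusters were named by fixed marker lists, and the details of the naming rule were set after the clusters were seen. Calling each cell on its own gave the same class for 82.4% of 36244 named cells. UMIs were summed per class and library and tested with edgeR 4.0.16 (filterByExpr, TMM, quasi-likelihood, Benjamini-Hochberg over all genes, threshold 0.05), after a test on simulated data. DESeq2 1.42.0 was an alternative, as were RLE factors, no count filter, a replicate block, each library left out, doublets kept, a 10% mitochondrial limit, equal cluster makeup, Leiden resolution 2 and stages by cell. Fits of single clusters, and equal makeup for the whole testis and for the other meiotic genes, were chosen after seeing the data. All members were named, with every library's value for called members where called, and for the member of each role with most UMIs in the early, pachytene-like and late classes. Other meiotic genes were named by size of change. Gene positions are from GENCODE M21, and starts from RefSeq. The members and gene lists were chosen with earlier results of these data known.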

Additional observations from a re-analysis of the deposited data

How the results depend on the processing

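Low counts left Rad21l and Mei4 untested in every class, Spata22 in all but the early class and Dmc1 in the pachytene-like and late classes, and 2 libraries per diet limited every test. Early members called, 1 with all libraries, were 0 with DESeq2, at Leiden resolution 2, with stages by cell and in the large or the small early clusters alone, and 2 with doublets kept (2% of all genes called). Late members called, 7 with all libraries, were 0 with DESeq2, with equal cluster makeup, with stages by cell and in the deeper or the shallower cluster alone. They were also 0 with doublets kept and at the 10% mitochondrial limit, but there the late class held 1 deep cluster (1570 and 2315 cells, median 28502 and 32083 UMIs), so these come to the deeper cells alone. Round members called were 2 in place of 0 at Leiden resolution 2 (3.63% of all genes), where the class gained a shallow cluster (1807 cells, median 1960.0 UMIs) and lost one of 1413 cells. Elongating members called, 2 with all libraries, were 0 with DESeq2 and at the 10% mitochondrial limit, and 1 without the count filter (2% of all genes). Whole-testis members called, 17 over all kept cells, were 0 with equal cluster makeup and 12 without the count filter (1.15% and 15.3% of all genes). Leaving out 1 library gave 0 to 2 early, 0 to 2 pachytene-like, 0 to 7 late, 0 to 3 round, 0 to 2 elongating and 7 to 16 whole-testis members, and 0 for the interaction. All genes called in these fits were 0.689% to 4.69%, 0.929% to 7.47%, 2.92% to 13%, 0.0145% to 11.8%, 0.568% to 5.07% and 19.4% to 32.2% in that order of classes. An arm left with 1 library is assumed there to vary like the other. With equal makeup Rec8 turned to 0.044 and Spo11 to -0.0041 on the log2 scale in the whole testis, from below and above 0. Of 332 alternatives for 27 single-member changes, 200 kept direction and call, 130 kept the direction and lost the call, and these 2 reversed. Except where a value or a smaller set of cells shows it, the cause was not tested. Where a count of members stands here or above without a share of all genes, it does not tell whether the whole fit called fewer genes.

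With the replicate number as a block, 1 early, 0 pachytene-like, 6 late, 0 round, 1 elongating and 17 whole-testis members were called, beside 1.58%, 4.27%, 9.92%, 2.67%, 3.61% and 39.9% of all genes. Without the block these shares were 1.47%, 0.847%, 10.3%, 0.714%, 4.78% and 34.3%. The deviations of same-numbered libraries correlated at -0.030 to 0.089 over genes. With 2 libraries per diet this cannot show whether same-numbered libraries shared a batch, and the labels name none.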
